A study of Mus musculus with 15 samples.

Results

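The MHC class II genes and Ciita are a set of 10 genes chosen by name, namely Cd74, H2-Aa, H2-Ab1, H2-Eb1, Ciita, H2-DMa, H2-DMb1, H2-DMb2, H2-Oa and H2-Ob, of 38924 genes listed in the RNA-seq tables. Each of the 10 has a single entry and each passed the filter on low counts, at least 1 cpm (the count scaled to a fixed library size) in at least 2 libraries, together with 14967 genes in all. The libraries were made from brain myeloid cells of wild type C57BL/6J mice aged 12 months, sorted by flow cytometry into CD11b+CD45lo cells, the gate that holds resident microglia, and CD11b+CD45hi cells, the gate in which infiltrating peripheral myeloid cells are sought. The mice were male and had eaten either control chow (CD) or a western diet (WD) from 2 months of age. There were 4 CD CD45hi, 4 CD CD45lo, 3 WD CD45hi and 4 WD CD45lo libraries. The gates limit both groups as models, since CD45 level separates cell types only in part and the cell suspension came from whole hemispheres without the olfactory bulb and cerebellum. The comparisons asked how the sorted cells differed from each other on either diet and how the diet changed each of them.

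Class II molecules present peptides from ingested proteins to CD4 T cells. An alpha and a beta chain (in this strain H2-Aa with H2-Ab1, and H2-Eb1 as the beta chain of the second isotype) assemble in the endoplasmic reticulum with the invariant chain Cd74, which fills the groove and directs the complex to endosomes, where the H2-DM dimer exchanges its last fragment for peptide and the H2-DO dimer restrains H2-DM. Transcription of these genes depends on Ciita, a coactivator that binds no DNA itself and is recruited by RFX, CREB and NF-Y factors sitting on the X and Y boxes of class II promoters. Resting microglia are known for low class II, whereas dendritic cells, B cells and many macrophages at the borders of the brain carry more of it.

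Total expected counts ran from 11951412 to 17912272 per library with a median of 15100700. Genes with 1 count or more numbered 14072 to 15477 in the CD45hi and 16004 to 17864 in the CD45lo libraries. On the second principal component, which held 13.2% of the variance, CD CD45hi replicate 4 and WD CD45hi replicate 1 stood apart from the other 13 libraries, so results that rest on them are given with and without them. The summed level of 8 microglial markers (P2ry12, Tmem119, Sall1 and others) was 12708 to 16461 cpm in CD45lo and 6061 to 7309 cpm in CD45hi libraries, so microglial transcripts were also plentiful in the CD45hi gate. Cd3e, a T cell gene that the gate selected against, had at most 4 counts in any library. Other T and NK cell markers were present in CD45hi libraries, where Cd3g reached 47, Klrb1c 734 and Gzma 835 counts.

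Of the 10 genes, 8 lie in the H2 complex on chromosome 17 (mm10, GENCODE M21). H2-Oa (34092340 to 34095234), H2-DMa (34119541 to 34139101), H2-DMb2 (34143307 to 34151555), H2-DMb1 (34153072 to 34160230), H2-Ob (34238903 to 34254414), H2-Ab1 (34257689 to 34269419) and H2-Eb1 (34305867 to 34316674) are on the plus strand, and H2-Aa (34282744 to 34287823) is on the minus strand. Ciita is on the plus strand of chromosome 16 (10480059 to 10528418), and Cd74 lies outside both regions. Promoter sequence from 250 bases before to 50 bases after an annotated start was taken from RefSeq (GRCm38.p6) for 7 of the 10 genes, 8 promoters in all. Cd74, H2-Ab1 and Ciita had no entry. Each was searched on both strands for the X box core GCAAC and the Y box core ATTGG, the reverse complement of the CCAAT that NF-Y binds, and for GCAAC followed after 15 to 35 bases by ATTGG.

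The ordered pair was present in 4 of the 8 promoters, those of H2-Aa, H2-Eb1, H2-Oa and H2-Ob, in each case on the gene's own strand. In all 32851 promoters of this length 35.2% held GCAAC, 37.4% held ATTGG and 1.02% held the ordered pair on either strand. On the gene's own strand 0.521% held the pair. The stretches are shown because they let the classical genes be set beside the H2-DO genes, whose levels behaved differently. Capitals mark the X core and the Y core, read 5′ to 3′ on the gene's strand.
H2-Aa, chr17:34287859-34287912, minus strand: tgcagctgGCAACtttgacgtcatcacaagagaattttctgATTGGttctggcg
H2-Eb1, chr17:34305768-34305820, plus strand: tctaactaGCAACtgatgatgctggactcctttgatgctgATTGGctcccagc
H2-Oa, chr17:34092295-34092348, plus strand: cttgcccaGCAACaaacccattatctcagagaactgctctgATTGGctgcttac
H2-Ob, chr17:34238810-34238860, plus strand: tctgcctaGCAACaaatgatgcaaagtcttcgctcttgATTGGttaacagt
H2-DMb1, chr17:34153093-34153142, plus strand: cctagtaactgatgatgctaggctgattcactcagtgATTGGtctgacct
H2-DMb2, chr17:34145122-34145171, plus strand: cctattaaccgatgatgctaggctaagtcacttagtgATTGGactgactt
The cores were 28 bases apart in H2-Aa and H2-Oa, 27 in H2-Eb1 and 25 in H2-Ob. Both H2-DM beta genes held ATTGG without GCAAC in these 300 bases, and the 2 H2-DMa starts held one core each. A match is a description of letters, and a missing match says only that these letters were not in this window.

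On both diets CD45hi cells carried far more transcript of the invariant chain, the 3 classical chains and Ciita than CD45lo cells, whereas the estimated differences of H2-DM and H2-DO genes were far smaller. On the WD, 5 of the 10 genes were higher in CD45hi cells and none was lower (edgeR glmTreat at 1.5-fold, FDR under 0.05), against 5.18% of all genes tested called in either direction, 4.01% called higher and 1.17% called lower. On the CD, 6 of the 10 were higher and none lower, against 3.98% in either direction, 3.39% higher and 0.588% lower. DESeq2 called 5 of the 10 on either diet, without H2-DMa. The median log2 fold change of the 10 genes was 3.16 on the WD and 3.35 on the CD, beside 0.00 and 0.04 over all genes tested. Because these are bulk libraries, more cells of a type and more RNA per cell cannot be told apart.

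**Figure D1:**
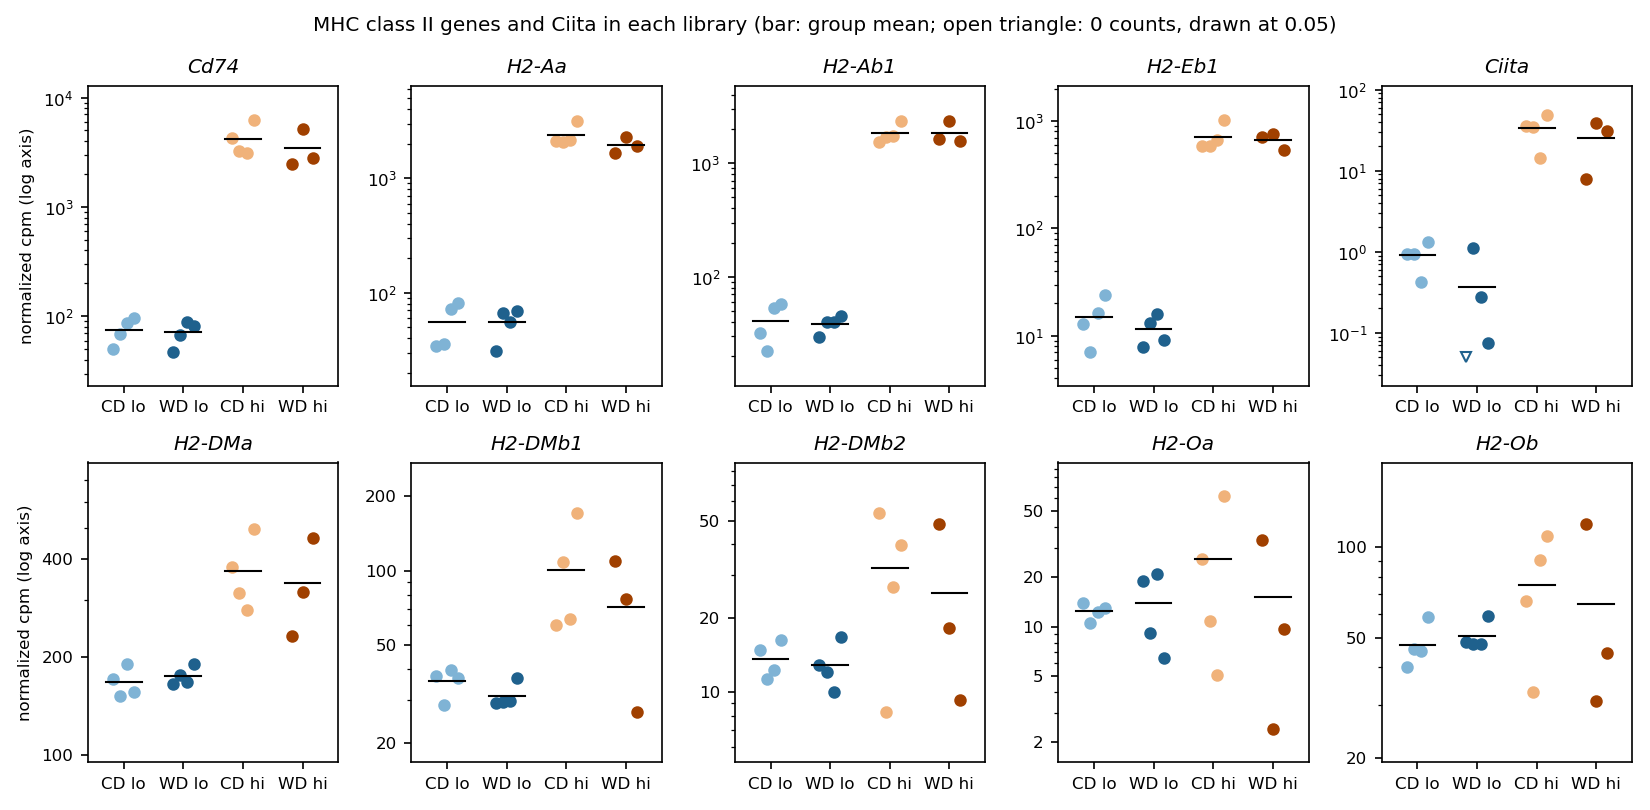
Normalized cpm (log axis) of the 10 genes in each of 15 libraries, by diet (CD, WD) and CD45 level (lo, hi). Points are libraries, bars are group means, and the open triangle is a library with 0 Ciita counts drawn at 0.05. For Cd74, the classical chains and Ciita every CD45hi library lies above every CD45lo library, whereas for H2-Oa and H2-Ob the groups overlap.

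Cd74, the invariant chain (chromosome 18, 60803848 to 60812652, plus strand), was at 4275, 3220.4, 3117 and 6237 cpm in the CD CD45hi libraries and at 2457, 5201 and 2778 cpm in the WD CD45hi libraries. In CD45lo cells it was at 49.9, 68.4, 86.2 and 96.9 cpm on the CD and at 47.3, 67.3, 89.3 and 81.3 cpm on the WD. The lowest CD45hi library was therefore far above the highest CD45lo library. The log2 fold change was 5.61 (SE 0.340) on the WD and 5.80 (SE 0.337) on the CD, a 48.8-fold and a 55.9-fold difference (edgeR glmTreat, FDR = 6.02e-08 and 2.51e-08). The CD45lo mean was 2.05% of the CD45hi mean on the WD and 1.79% on the CD.

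H2-Aa, the alpha chain of the first isotype, was at 2103, 2074, 2144 and 3171 cpm in CD CD45hi and at 1676, 2301 and 1913 cpm in WD CD45hi libraries. Its CD45lo values were 34.3, 35.9, 72.5 and 80.5 cpm on the CD and 30.9, 66.5, 55.7 and 68.6 cpm on the WD. The groups stood clear of each other, although CD45lo libraries of either diet differed among themselves more than 2-fold. The log2 fold change was 5.15 (SE 0.337) on the WD and 5.41 (SE 0.334) on the CD (edgeR glmTreat, FDR = 9.51e-08 and 4.35e-08).

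H2-Ab1, its beta chain partner, was at 1550.3, 1700.2, 1739.7 and 2377 cpm in CD CD45hi and at 1647, 2350.3 and 1582 cpm in WD CD45hi libraries. In CD45lo cells it was at 31.9, 22.0, 52.6 and 57.3 cpm on the CD and at 29.2, 39.6, 39.6 and 44.9 cpm on the WD. CD45hi libraries again stood clear of CD45lo libraries, and H2-Ab1 was the chain with the smallest spread among the 7 CD45hi libraries, with a coefficient of variation of 19.3%. CD45hi cells exceeded CD45lo cells by a log2 fold change of 5.60 (SE 0.304) on the WD and 5.49 (SE 0.297) on the CD (edgeR glmTreat, FDR = 2.74e-08 and 1.28e-08).

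H2-Eb1, the beta chain of the second isotype, was at 589, 585, 659 and 1032 cpm in CD CD45hi and at 713, 752 and 539 cpm in WD CD45hi libraries, and at 7.0 to 24.2 cpm in CD and 7.93 to 15.9 cpm in WD CD45lo libraries. No CD45hi library came near a CD45lo library. Its log2 fold change was 5.85 (SE 0.379) on the WD and 5.57 (SE 0.367) on the CD (edgeR glmTreat, FDR = 8.75e-08 and 9.53e-08). Its alpha chain partner could not be followed: H2-Ea-ps had 0 counts in all libraries and the symbol H2-Ea was not listed in the tables used here. C57BL/6 mice are known to lack a functional H2-Ea gene. Without the libraries that stood apart, Cd74, H2-Aa, H2-Ab1 and H2-Eb1 had log2 fold changes of 5.81, 5.25, 5.68 and 5.80 on the WD and 5.55, 5.24, 5.35 and 5.35 on the CD. H2-Eb2, a further beta chain gene of the locus, reached at most 30 counts and did not pass the filter.

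Ciita, the coactivator, had the lowest mean TPM (a level corrected for transcript length) of the 10 genes in every group. On the cpm scale it was at 35.5, 34.7, 14.3 and 49.2 cpm in CD CD45hi and at 7.81, 38.4 and 30.8 cpm in WD CD45hi libraries, which rest on 83 to 765 counts. In CD45lo cells it was at 0.941, 0.934, 0.430 and 1.31 cpm on the CD and at 0, 1.11, 0.275 and 0.0758 cpm on the WD, which rest on 0 to 23 counts. The library with 0 counts allows a level of up to 0.197 cpm (3 counts, counting error only). CD45hi and CD45lo libraries did not overlap, yet the spread was wide in both. The log2 fold change was 6.12 (SE 0.965, 95% interval 4.08 to 8.16) on the WD and 5.20 (SE 0.892, 3.31 to 7.08) on the CD (edgeR glmTreat, FDR = 0.000795 and 0.00186). WD CD45hi replicate 1 was the lowest CD45hi library for Ciita and without it and CD CD45hi replicate 4 the log2 fold changes were 6.56 and 4.95. WD CD45lo replicate 2 held 15 of the 21 counts of its group, and without it the log2 fold change on the WD was 7.61. An antisense-strand gene, Dexi, overlaps 25888 of the 48360 bases of Ciita and had 29 to 337 counts, and no strand setting for the counting was stated.

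H2-DMa, the alpha chain of the peptide exchange factor, was at 379, 316, 279 and 497 cpm in CD CD45hi and at 233, 317 and 467 cpm in WD CD45hi libraries. In CD45lo cells it was at 171, 152, 191 and 156 cpm on the CD and at 166, 177, 168 and 191 cpm on the WD. All CD45hi libraries were above all CD45lo libraries on either diet, a separation in this direction that 10% of all genes showed on the WD and 8.26% on the CD. The log2 fold change was 1.13 (SE 0.207, edgeR glmTreat FDR = 0.0468) on the CD, and 0.95 (SE 0.220, FDR = 0.16) on the WD. The CD call stood close to the threshold: FDR was 0.168 without CD CD45hi replicate 4 and above 0.05 in 9 further fits that each left out another library, namely CD CD45hi replicate 1 and any of the 8 CD45lo libraries. Without WD CD45hi replicate 1, H2-DMa passed on the WD (log2 fold change 1.16, FDR = 0.0421), and without both libraries that stood apart FDR was 0.0162 on the WD and 0.0813 on the CD. Brd2, on the opposite strand, overlaps 3094 of the 19561 bases of H2-DMa and had 1882 to 5104 counts. Tested against no change rather than against 1.5-fold, FDR was 0.00997 on the WD and 0.00165 on the CD (edgeR glmQLFTest), a test that called 9.12% and 8.03% of all genes.

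The H2-DM beta chain is encoded by a pair of related genes that are identical in part. In the annotated coding transcripts, 254 of 1330 windows of 75 bases from H2-DMb1 (19.1%) and 254 of 1741 from H2-DMb2 (14.6%) were shared by both, and RSEM gave fractional counts to both in all 15 libraries, so the division between them is an estimate. H2-DMb1 was at 60.5, 108, 63.5 and 171 cpm in CD CD45hi, at 109, 77.0 and 26.8 cpm in WD CD45hi, and at 28.7 to 39.6 cpm in all CD45lo libraries. H2-DMb2 was at 53.9, 8.28, 26.7 and 39.8 cpm in CD CD45hi, at 48.3, 18.3 and 9.28 cpm in WD CD45hi, and at 9.99 to 16.8 cpm in all CD45lo libraries. Most CD45hi values thus lay above a narrow CD45lo band. Below it lay WD CD45hi replicate 3 for both genes and CD CD45hi replicate 2 for H2-DMb2. Only H2-DMb1 on the CD did not overlap between the gates, a separation in this direction that 8.26% of all genes showed. H2-DMb1 had a log2 fold change of 1.18 on the WD (SE 0.404) and 1.49 on the CD (SE 0.383) and H2-DMb2 of 0.97 (SE 0.569) and 1.24 (SE 0.537), with FDR of 0.21, 0.0856, 0.517 and 0.406 in that order (edgeR glmTreat). Without WD CD45hi replicate 3, the library with the lowest H2-DMb1, H2-DMb1 passed on both diets (1.57 with FDR = 0.0368 on the WD and 1.5 with FDR = 0.0288 on the CD). Without WD CD45hi replicate 1, in contrast, the WD log2 fold change fell to 0.73 for H2-DMb1 and to 0.09 for H2-DMb2, so the WD value of H2-DMb2 rested on that library. Summed, the pair had log2 fold changes of 1.12 (SE 0.370) and 1.43 (SE 0.351), neither past the test (FDR = 0.208 and 0.0779). Tested against no change rather than against 1.5-fold, H2-DMb1 had FDR = 0.0774 on the WD and 0.0214 on the CD (edgeR glmQLFTest). H2-DMb2 had 0.319 and 0.202 in that test, which called 9.12% and 8.03% of all genes.

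H2-DO is best known from B cells and some dendritic cells. H2-Oa, its alpha chain, was at 25.6, 10.8, 5.10 and 61.2 cpm in CD CD45hi and at 33.4, 2.42 and 9.66 cpm in WD CD45hi libraries, and at 10.5 to 13.9 cpm in CD and 6.44 to 20.8 cpm in WD CD45lo libraries. H2-Ob, its beta chain, was at 66.6, 33.1, 90.6 and 109 cpm in CD CD45hi and at 119.7, 30.9 and 44.5 cpm in WD CD45hi libraries, and at 40.1 to 58.7 cpm in CD and 47.6 to 59.4 cpm in WD CD45lo libraries. For both chains CD45hi libraries fell above and below the CD45lo libraries. The log2 fold change of H2-Oa was 0.13 on the WD (95% interval -1.54 to 1.80) and 1.05 on the CD (-0.51 to 2.61), and that of H2-Ob was 0.36 (-0.52 to 1.23) and 0.65 (-0.16 to 1.47), none past the test (edgeR glmTreat, FDR from 0.744 to 0.997). These intervals still hold differences of more than 2-fold. Without the libraries that stood apart, H2-Oa was at -1.20 on the WD and 0.17 on the CD, and H2-Ob was at -0.43 on the WD. The sign of H2-Oa on the WD was not settled, since it also turned without WD CD45lo replicate 2 (-0.02) or replicate 4 (-0.11). H2-Oa lies wholly within the antisense gene BC051537 on the opposite strand, which had 0 to 24 counts.

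**Figure D2:**
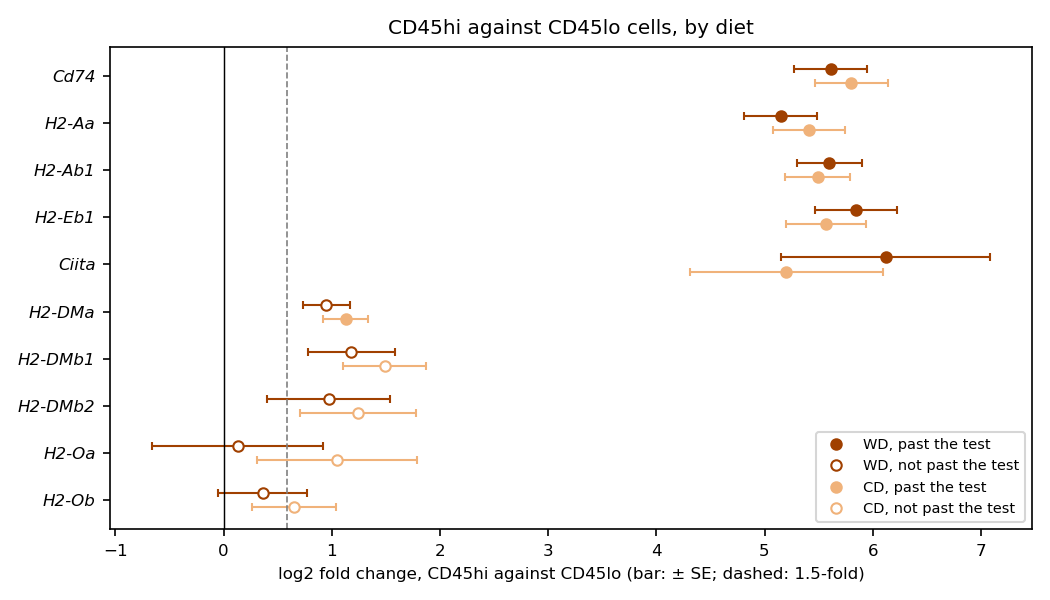
Log2 fold change of CD45hi against CD45lo cells on the WD and the CD for each of the 10 genes, with ± SE. Filled points passed the test (edgeR glmTreat at 1.5-fold, FDR under 0.05), open points did not, and the dashed line is 1.5-fold. Cd74, the classical chains and Ciita lie between 5.15 and 6.12, and the H2-DM and H2-DO genes between 0.13 and 1.49.

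The order of the genes within a cell type also differed between the gates. On the TPM scale, CD45hi cells of both diets ranked Cd74, H2-Aa, H2-Ab1, H2-Eb1 and H2-DMa as the first 5, with means of 5224, 3735, 2935, 959.6 and 363 TPM on the CD and 4103, 3015, 3004, 856 and 323 TPM on the WD. The ranges of Cd74, H2-Aa and H2-Ab1 overlapped between neighbours, whereas H2-Eb1 stood below H2-Ab1 and H2-DMa below H2-Eb1 in every library. In CD45lo cells H2-DMa came first, with 229.7 ± 28.2 TPM (SD, n = 4) on the CD and 239.8 ± 10.4 TPM (SD, n = 4) on the WD. Cd74 followed with 132 ± 39.6 and 122 ± 26.8 TPM and H2-Aa with 118 ± 50.6 and 117 ± 32.2 TPM, which overlapped each other but not H2-DMa. Ciita came last in all 4 groups, at 8.96 and 6.55 TPM in CD and WD CD45hi cells and at 0.335 and 0.140 TPM in CD and WD CD45lo cells.

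Per 100 TPM of Cd74, H2-DMa was at 4.89 to 13.4 TPM in the 7 CD45hi libraries and at 126 to 274 TPM in the 8 CD45lo libraries, with no overlap. The chains of the presenting molecule kept closer proportions. Per TPM of H2-Ab1, H2-Aa was at 0.921 to 1.49 in CD45hi and 1.19 to 1.97 in CD45lo libraries, and per 100 TPM of H2-Ab1, H2-Eb1 was at 25.2 to 36.2 and 21.0 to 42.9, so both ratios overlapped between the gates. Together the 10 genes took 0.627% to 1.2% of all counts in CD45hi libraries and 0.0411% to 0.0601% in CD45lo libraries. As a percentage of the CD45hi mean cpm, the CD45lo mean was 1.73 to 2.82 for the classical chains, 1.42 and 2.70 for Ciita (WD and CD), 35.5 to 51.8 for the H2-DM genes and 48.2 to 91.3 for the H2-DO genes.

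**Figure D3:**
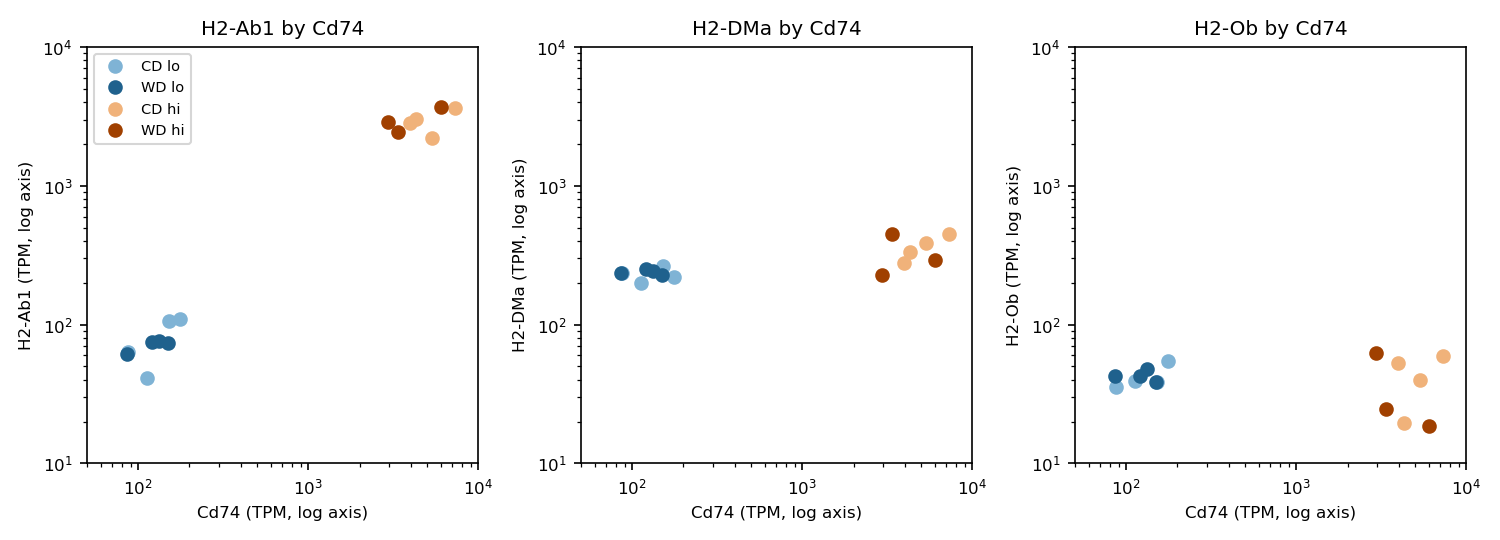
H2-Ab1, H2-DMa and H2-Ob (TPM, log axis) against Cd74 (TPM, log axis), where each point is a library coloured by diet and CD45 level. H2-Ab1 moves from a mean of 80.2 TPM in CD CD45lo to 2935 TPM in CD CD45hi libraries along with Cd74, whereas H2-DMa moves from 229.7 to 363 TPM and H2-Ob from 42.1 to 42.9 TPM. On the normalized cpm scale of the tests the same means go from 40.9 to 1842 for H2-Ab1, from 168 to 368 for H2-DMa and from 47.5 to 74.7 for H2-Ob.

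Markers of other cell types moved with the same comparison. Over all genes tested, 4.01% were called higher and 1.17% lower in CD45hi cells on the WD, and 3.39% and 0.588% on the CD. All 7 border-associated macrophage markers tested (Mrc1, Lyve1, Cd163 and others) were higher in CD45hi cells on both diets, with a summed level of 830.0 to 2877 cpm in CD45hi and 68.5 to 253 cpm in CD45lo libraries. Of 9 dendritic cell markers 3 were higher on both diets, namely Cd209a, Clec10a and Itgax, with a summed level of 215 to 499 cpm against 34.6 to 48.7 cpm, whereas Xcr1, Zbtb46 and Flt3 did not pass. Of 6 classical monocyte markers 3 were higher on the WD and 4 on the CD (sum 401 to 1069 against 58.2 to 161 cpm), and of 6 neutrophil markers 4 on both diets (sum 1121 to 2730.2 against 544 to 832 cpm). Most of the neutrophil sum in CD45lo cells, 667 (CD) and 739 cpm (WD) on average, was Csf3r, at 551 and 684 cpm. Csf3r did not pass on either diet (log2 fold change -0.07 on the WD and 0.40 on the CD). The summed level of 7 B cell markers was 10 to 34.1 cpm in CD45hi and 3.78 to 15.6 cpm in CD45lo libraries, and none of the 5 tested passed on the CD. Of 7 T and NK cell markers 4 were tested, 3 were higher on the WD and 2 on the CD, and their sum was 10.6 to 140.3 against 0 to 0.227 cpm. Of 5 markers of other brain cells none passed on the WD and 1 was lower on the CD (sum 1.41 to 16.2 against 1.71 to 4.98 cpm). In the opposite direction, 5 of 8 microglial markers were lower on the WD and 8 of 8 on the CD. The part of each of these cell types in the class II difference was not tested.

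Single CD45hi libraries can be set beside these marker sums. WD CD45hi replicate 1 had the lowest border-associated macrophage sum of the gate, 830.0 cpm. Its Cd74 (2457 cpm), H2-Aa (1676 cpm), Ciita (7.81 cpm) and H2-DMa (233 cpm) were the lowest of the gate, while its H2-Ab1 (1647 cpm) and H2-Eb1 (713 cpm) lay within the range of the other CD45hi libraries. CD CD45hi replicate 4, the highest library for Cd74, H2-Aa, H2-Ab1, H2-Eb1 and Ciita, had a border-associated macrophage sum of 2200.1 cpm, beside 2095 to 2222 cpm in the other CD CD45hi libraries, and the highest classical monocyte and neutrophil sums of the gate, 1069 and 2730.2 cpm. WD CD45hi replicate 1 and CD CD45hi replicate 4 had the highest summed H2-DO level of the gate, 153 and 169.8 cpm, and B cell marker sums of 19.4 and 34.1 cpm. Their dendritic cell sums were 315 and 379 cpm. CD CD45hi replicate 2, second in the monocyte sum (974 cpm), had the lowest sum of Cd74 and the classical chains in its group, 7579 cpm. WD CD45hi replicate 2, second in that class II sum (10604 cpm), had the highest border-associated macrophage and dendritic cell sums, 2877 and 499 cpm.

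Ciita passed the test between the gates, and the other genes of class II transcription did not. None of 20 genes passed the test in either direction on either diet (edgeR glmTreat, background 5.18% and 3.98%), and their median log2 fold change was -0.11 on the WD and 0.12 on the CD. Among them Ep300, a histone acetyltransferase that CIITA engages, had log2 fold changes of -0.04 and 0.07, Ifngr1, the ligand-binding chain of the interferon gamma receptor, had -0.40 and -0.82, Jak1, a kinase of that receptor, had -0.17 and -0.12, and Crebbp, the acetyltransferase paired with Ep300, had 0.13 and 0.16 (WD and CD). Several low genes of the list varied widely among CD45hi libraries. Rfx5, the DNA-binding subunit of RFX, was at 29.7 and 30.1 cpm in CD and WD CD45lo cells and at 27.4 and 19.1 cpm in CD and WD CD45hi cells (SD 4.96, 7.85, 19.9 and 3.68). Rfx5 is named here after its values were seen, as the factor that binds the X box.

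**Figure D4:**
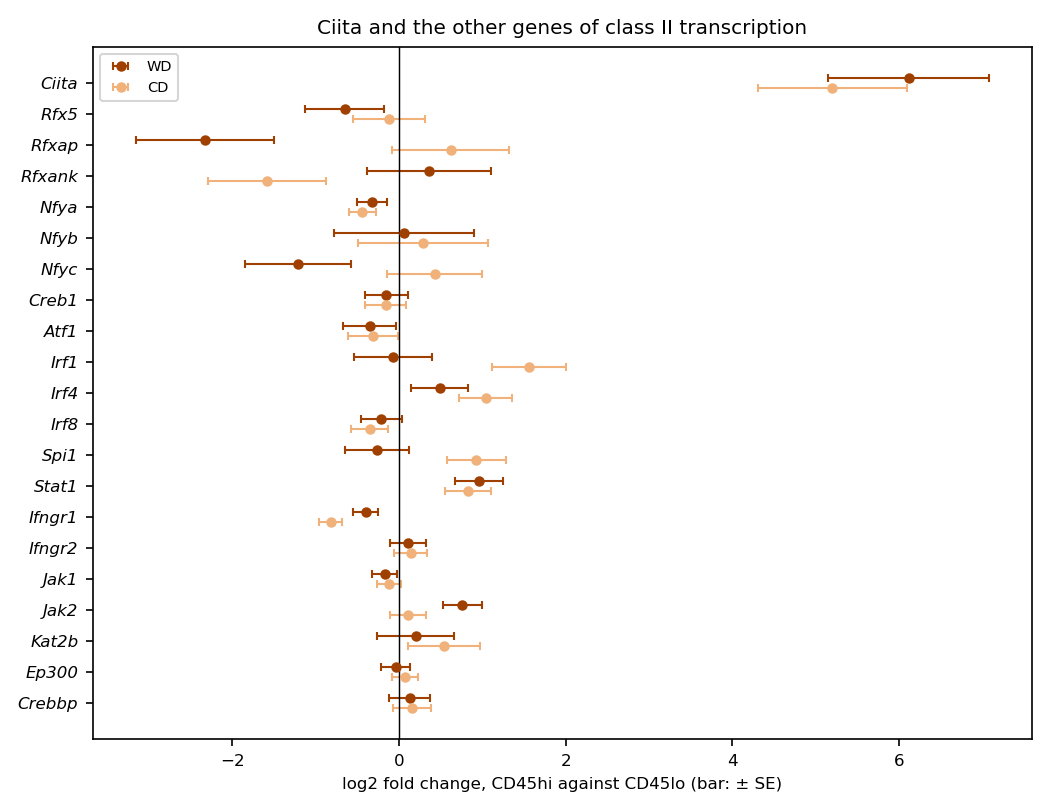
Log2 fold change of CD45hi against CD45lo cells, with ± SE, for Ciita and the 20 other genes of class II transcription on the WD and the CD. Ciita lies at 6.12 and 5.20, and none of the 20 other genes passed the test.

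Of 14 genes of antigen processing and class II turnover, which act after transcription, 1 was higher on the WD, and 1 was higher and 1 lower on the CD, where 5.18% and 3.98% of all genes were called. Cd83, a surface protein that keeps class II from being degraded, rose from 72.1 to 218 cpm on the WD (log2 fold change 1.6, SE 0.233, edgeR glmTreat FDR = 0.0026) and from 65.9 to 208 cpm on the CD (1.66, SE 0.221, FDR = 0.00104). Lgmn, an endosomal protease that takes part in cutting the invariant chain, was lower in CD45hi cells on the CD, 568 against 1089 cpm (log2 fold change -0.94, SE 0.119, edgeR glmTreat FDR = 0.0268, lost in 8 of 26 alternatives, among them those that left out CD CD45hi replicate 2 or 4 or any 1 of the CD CD45lo libraries, with FDR up to 0.0807), and was at 684 against 990.3 cpm on the WD (-0.53, FDR = 0.77). Ctss, the cathepsin that makes the final cut in the invariant chain, was at 3656 and 4218 cpm in CD and WD CD45hi cells and at 4987 and 4618 cpm in CD and WD CD45lo cells and did not pass on either diet.

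Co-stimulation genes gave no call. Of 12 genes 9 were tested and none passed in any of the comparisons. Between the gates 5.18% (WD) and 3.98% (CD) of all genes were called, and at those shares a list this short can give no call. Estimates went in both directions, with a median log2 fold change of -0.11 (WD) and -0.30 (CD). Cd86, the main ligand of Cd28, had -0.30 (WD) and -0.61 (CD). Cd274 had 1.45 and 1.49 and Tnfsf9 had 2.64 and 2.86 (WD and CD, edgeR glmTreat, FDR from 0.095 to 0.133). In the class II region, 6 of 9 listed neighbours were tested. Psmb9, an immunoproteasome subunit that serves class I, was higher in CD45hi cells on the WD (184 against 65.6 cpm, log2 fold change 1.49, SE 0.222, edgeR glmTreat FDR = 0.00392) and was at 78.3 against 65.3 cpm on the CD (0.26, FDR = 1). Within CD45hi cells Psmb9 was also higher on the WD than on the CD (1.23, SE 0.221, edgeR glmQLFTest FDR = 0.0321), a call lost in 11 of 25 alternatives, with FDR = 0.135 against 1.5-fold, 0.785 with only these groups in the fit and 0.0504 to 0.0637 when any 1 of the 8 CD45lo libraries was left out. Tap1, Tap2, Psmb8, Brd2 and Btnl2 did not pass.

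No change with diet was detected for any of the 10 genes in either cell type at this depth and sample number. In CD45hi cells 0 of 10 were called (edgeR glmQLFTest, FDR under 0.05), against 0.254% of all genes tested, and 0 of 10 had an unadjusted p under 0.05, where 2628 genes did. In CD45lo cells 0 of 10 were called and 0 had an unadjusted p under 0.05, where the background was 0% of all genes with 123 genes at an unadjusted p under 0.05. DESeq2 called 0 of the 10 in both, against 6.7% of all genes in CD45hi and 0.0267% in CD45lo cells. The median log2 fold change of the 10 genes, WD against CD, was -0.27 in CD45hi and -0.08 in CD45lo cells, beside -0.02 and 0.00 over all genes.

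The intervals say how large a diet effect these libraries leave room for, with 1 estimate of spread per gene for all 4 groups. The spread differed between the gates. The coefficient of variation in CD45hi and CD45lo cells was 35.8% and 24.9% for Cd74 and 27.4% and 8.52% for H2-DMa. H2-Oa, H2-Ob and both H2-DM beta genes also varied more in CD45hi cells. H2-Aa went the other way (21.5% and 34.9%), as did H2-Ab1, H2-Eb1 and Ciita. An interval can be too narrow in the gate where a gene varied more. In CD45hi cells Cd74 had a log2 fold change of -0.28 (95% interval -0.90 to 0.35), H2-Aa of -0.27 (-0.91 to 0.36), H2-Ab1 of 0.01 (-0.54 to 0.57) and H2-Eb1 of -0.10 (-0.79 to 0.58). In this fit to all libraries, changes of 2-fold lay outside the interval of each of these 4 genes in both directions. The limit for Cd74 depended on single libraries, since leaving out a library in turn moved its estimate between -0.69 and -0.02. Ciita, at -0.38 (-2.08 to 1.32), and H2-Oa, at -0.76 (-2.46 to 0.94), were measured less closely. H2-DMb2 was at -0.35 (-1.56 to 0.87), and at -1.10 without the libraries that stood apart. Without CD CD45hi replicate 4 and WD CD45hi replicate 1, Cd74 was at 0.17, Ciita at 0.30 and H2-DMa at 0.27, so the small negative values of these 3 genes rested on those libraries.

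In CD45lo cells the log2 fold change was -0.08 for Cd74 (-0.66 to 0.50), -0.01 for H2-Aa (-0.60 to 0.58), -0.09 for H2-Ab1 (-0.62 to 0.43), -0.38 for H2-Eb1 (-1.03 to 0.28) and 0.07 for H2-DMa (-0.36 to 0.50). Ciita was at -1.31 (-3.07 to 0.46), which rests on 64 counts in 4 CD and 21 counts in 4 WD libraries and ran from -2.80 without WD CD45lo replicate 2 to -0.89 without WD CD45lo replicate 1. The diet groups overlapped for all 10 genes in both cell types, where 2.58% of all genes had every WD library higher and 3.19% every WD library lower in CD45hi cells, and 1.13% and 1.29% in CD45lo cells.

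**Figure D5:**
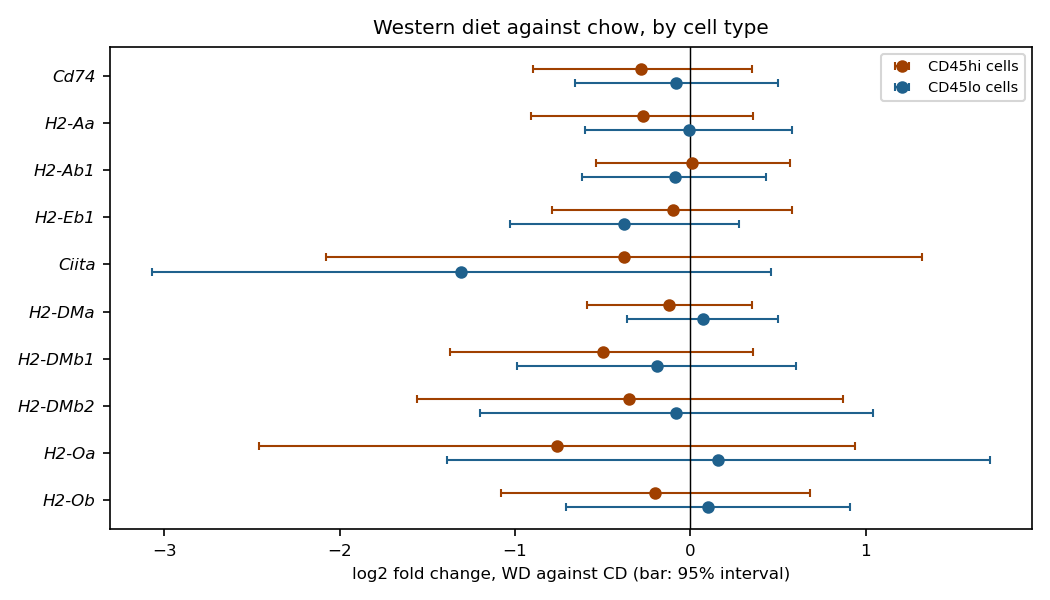
Log2 fold change of WD against CD with its 95% interval for each of the 10 genes in CD45hi and CD45lo cells. Every interval includes 0, and the intervals of Ciita and H2-Oa are the widest.

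No difference between diets was detected in the size of the CD45hi against CD45lo change. The interaction of diet and CD45 level was called for 0 of 10 genes (edgeR glmQLFTest, background 0.00668%), 0 had an unadjusted p under 0.05 and DESeq2 called 0. The estimate was -0.20 for Cd74 (95% interval -1.05 to 0.66), 0.11 for H2-Ab1 (-0.66 to 0.87) and 0.93 for Ciita (-1.47 to 3.32) on the log2 scale. The call for H2-DMa on the CD and its absence on the WD therefore do not amount to a difference between diets, since its interaction was -0.19 (-0.82 to 0.45, FDR = 0.905). The comparisons of the gates on the WD and on the CD share no library, but they come from the same fit and share its estimate of the spread. Leaving out any WD CD45lo library thus took H2-DMa on the CD to an FDR of 0.0548 to 0.0597 (edgeR glmTreat). The diet comparisons reuse the libraries of both gate comparisons.

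The genes most like the class II pattern were ranked by the Pearson correlation of log2 cpm with the mean of Cd74, H2-Aa, H2-Ab1 and H2-Eb1. Over all 15 libraries the first 5 of 8243 genes were Apoe (1665 cpm in CD45hi and 113 cpm in CD45lo cells), C4b (131 and 10.7 cpm), Siglec1 (136 and 8.16 cpm), Myo5a (368 and 40.6 cpm) and Lyz2 (5561 and 583 cpm). Since the libraries form separate clusters by gate, no coefficient is given for them. Within the 7 CD45hi libraries the first 5 of 8379 genes were Asl (r = 0.987), Tacc1 (0.978), Sptlc2 (0.957), Irak4 (0.956) and Gas6 (0.953), and within the 8 CD45lo libraries the first 5 of 7914 were Fyttd1 (r = 0.935), Wdr13 (0.915), Eif2s3y (0.911), Syncrip (0.899) and Clec2d (0.892). The lists within each gate shared no gene with each other or with the list over 15 libraries. These coefficients are the top of long rankings over few libraries that also share their depth and sort, and they are given as a description.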

How the data were processed

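RNA-seq of sorted brain myeloid cells was analysed in 15 libraries. The authors made poly(A) libraries, trimmed the reads and quantified genes with RSEM 1.2.12 on mm10 (bcl2fastq 2.18.0.12 is also named in the submitters' processing notes). The annotation release and which library ran on which of the sequencers were not given in the sources used here. The deposited files hold expected counts and TPM values per gene and library. Expected counts were rounded to whole numbers, filtered at 1 cpm in at least 2 libraries and normalized by TMM in edgeR 4.0.16 (R 4.3.3, earlier quasi-likelihood form). All 4 groups entered 1 fit. CD45hi was tested against CD45lo with glmTreat at 1.5-fold, and diets and the interaction with glmQLFTest, with Benjamini-Hochberg adjustment over 14967 genes at FDR under 0.05. TPM was used as deposited, for levels between genes and in the plot against Cd74, and in no test. On simulated data for 14454 genes with 200 changed 4-fold, the comparison of the gates on the WD recovered 129, the diet comparison in CD45hi cells 148 and the interaction 106. Calls at unchanged genes numbered 1, 5 and 7 in that order. The changed genes were drawn from the more abundant ones, and a gene had the same spread in all groups. Recovery of low genes such as Ciita, or with unequal spread between groups, was therefore not measured. DESeq2 1.42.0, other filters, scalings and left-out libraries were alternatives.

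All 10 genes are named. From the other lists, genes past the test or, where fewer than 4 passed, up to 4 of the most abundant are named. Rfx5, Cd274, Tnfsf9, Csf3r and Cd3g were named after their values were seen. The 10 genes, the lists and the markers were chosen with earlier results of these data known. Vsir, Chil3 and Fcmr were matched by gene ID. The result of a marker gene is not reported here. Replicates are separate samples in the labels, and p-values measure the spread between them. Counting intervals and floors cover counting error only.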

Additional observations from a re-analysis of the deposited data

Results flagged for a closer look

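Normalized cpm of the 10 genes was examined in 30 groups of 4 libraries for a library far from the other 3 of its group (gap over range, Dixon's 95% limit), and 4 were found where chance gives about 1.5. In CD CD45hi replicate 4, H2-Aa was at 3171 cpm beside 2074 to 2144 cpm in the other 3 libraries, and H2-Eb1 was at 1032 cpm beside 585 to 659 cpm. The same library was the highest of its group for Cd74, H2-Ab1, Ciita, H2-DMa, H2-DMb1, H2-Oa and H2-Ob, and it stood apart on the second principal component. In WD CD45lo replicate 4, H2-DMb1 was at 36.6 cpm beside 29 to 29.8 cpm and H2-Ob at 59.4 cpm beside 47.6 to 48.7 cpm, gaps that are small in absolute terms.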

How the results depend on the processing

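Across 24 to 26 alternatives per comparison, 5 to 6 of the 10 genes were called on the WD and 5 to 7 on the CD, and 0 in the diet comparisons and the interaction. The calls that changed were those of H2-DMa and H2-DMb1. H2-DMa on the CD lost its call in 15 of 26 alternatives, among them DESeq2 (FDR = 0.126) and no filter on low counts (0.0622, edgeR). Leaving out both CD45hi libraries that stood apart was chosen after seeing the data. Over all genes, the counts called ran from 353 to 1365 on the WD (775 as reported), from 412 to 1202 on the CD (595), from 0 to 1003 for diet in CD45hi cells (38), from 0 to 4 in CD45lo cells (0) and from 0 to 188 for the interaction (1). With 3 or 4 libraries a group, the wide intervals of Ciita, H2-Oa and H2-Ob limit what could be seen.

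Deviations of same-numbered CD45hi and CD45lo libraries were at most weakly correlated (-0.0217 to 0.0695). CD45hi and CD45lo cells were sorted from the same brain suspensions, but the sources used here do not state which libraries came from the same mouse, so pairing by mouse was not settled. By titles, CD CD45hi replicates 2, 3 and 4 correlated most with the CD45lo library of their own number, and CD CD45hi replicate 1 did not. Seen from the other gate, every CD CD45lo library correlated most with the CD45hi library of its own number. The block by titles gave CD and WD libraries of the same number a shared term, so it was not a pairing by mouse. With a replicate block by sample titles, 604 genes were called on the WD, 501 on the CD and 2 for diet in CD45hi cells, and H2-DMa on the CD had FDR = 0.0685 (edgeR). By the second numbering, that of the deposited tables, 353 genes were called on the WD and 412 on the CD, H2-DMa had FDR = 0.098, Psmb9 on the WD 0.0602 and Lgmn on the CD 0.0638, and 5 of the 10 genes were called on either diet. Under the block by titles the WD value of H2-Oa became -0.22, the diet value of H2-Eb1 in CD45hi cells 0.09 and that of H2-Aa in CD45lo cells 0.02. Under the block by the second numbering H2-Oa became -0.03 and the interaction of H2-Ab1 -0.10. The cause was not tested.

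Of 1255 alternative values 59 changed sign, none of them called in either setting, and 44 of the 59 came from leaving out a library. H2-Oa on the WD became -0.07 with the newer quasi-likelihood form of edgeR. Without both libraries that stood apart, H2-Oa became -1.20 and H2-Ob -0.43 on the WD, the diet values in CD45hi cells became 0.17 for Cd74, 0.08 for H2-Eb1, 0.30 for Ciita and 0.27 for H2-DMa, and the interaction became 0.25 for Cd74, 0.01 for H2-Aa and 0.20 for H2-DMa. The cause was not tested.

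Leaving out a library in turn gave log2 fold changes on the WD from -1.20 to 0.64 for H2-Oa and from -0.43 to 0.69 for H2-Ob. For diet in CD45hi cells the range was -0.19 to 0.16 for H2-Ab1, -0.19 to 0.13 for H2-Eb1, -0.79 to 0.05 for Ciita, -0.42 to 0.09 for H2-DMa, -1.22 to 0.05 for H2-DMb2, -2.09 to 0.13 for H2-Oa and -0.99 to 0.14 for H2-Ob. Cd74 (-0.69 to -0.02), H2-Aa (-0.40 to -0.10) and H2-DMb1 (-0.95 to -0.11) kept their sign there. For diet in CD45lo cells it was -0.23 to 0.07 for Cd74, -0.18 to 0.22 for H2-Aa, -0.31 to 0.11 for H2-Ab1, -0.23 to 0.03 for H2-DMb2 and -0.10 to 0.40 for H2-Oa. For the interaction it was -0.61 to 0.06 for Cd74, -0.10 to 0.33 for H2-Ab1, -0.05 to 0.53 for H2-Eb1, -0.49 to 0.02 for H2-DMa, -0.76 to 0.08 for H2-DMb1, -1.14 to 0.13 for H2-DMb2 and -1.08 to 0.04 for H2-Ob.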
